A study of Homo sapiens with 16 samples.

Results

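Transforming growth factor beta (TGF-beta) and activin genes were followed through the malignant, stromal and immune cells of 2 transplanted mouse mammary tumor models. The 9 genes, taken by name from the 32285 genes counted, were the ligand genes Tgfb1, Tgfb2, Tgfb3 and Inhba, the receptor genes Tgfbr1, Tgfbr2 and Tgfbr3, and the response genes Tgfbi and Smad7. All 9 were found in every library. LPA1-T22 (T22, sensitive to PARP inhibition) and LPA1-T127 (T127, resistant) are syngeneic lines, each 1 tumor line, that arose in transgenic mice expressing the LPA1 receptor in mammary epithelium, and both are wild type for Brca1 and Brca2. Female FVB mice, 6 weeks old, carried tumor pieces in the mammary fat pad and received vehicle or the PARP inhibitor olaparib at 50 mg/kg by mouth each day. Droplet libraries came from 4 pools of T22 tumors and 4 pools of T127 tumors after 4 and 8 days of dosing (short-term), and from 8 pools after 20 days that mixed T22 and T127 tumors grown alone or in opposite fat pads of the same mouse (long-term). Vehicle and olaparib tumors were tagged and mixed within each pool, and the files used here do not tie a cell to its tumor, so the effect of olaparib and of co-transplantation was not analysed here.

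The TGF-beta ligands are secreted in a latent form, are freed by integrins or thrombospondin, and bind a complex of the type II receptor TGFBR2 and the type I receptor TGFBR1, which phosphorylates SMAD2 and SMAD3. Betaglycan, the product of Tgfbr3, presents ligand to that complex, and activin A, the dimer of the Inhba product, signals to the same SMADs through its own receptors while follistatin traps it. In tumors the pathway is best known for growth arrest of epithelium, activation of fibroblasts, and restraint of T cells and macrophages. The response genes differ in their products: Tgfbi encodes a secreted matrix protein induced by TGF-beta, and Smad7 an inhibitory SMAD that turns the receptor off.

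Levels are given as CPM, the unique molecular identifiers (UMIs) of a gene per 1000000 UMIs of the same cells. UMIs were summed over every cell with the same deposited cluster name. Since detection differs between transcripts, CPM were compared between cells and never between genes. The long-term pools held 30845 cells, but pools 1 and 2 shared 3939 cell barcodes, pools 1 and 3 shared 987 and pools 2 and 3 shared 1082, against at most 8 in each of the other 25 pairs of pools. For pools 1 and 2, 1 and 3, and 2 and 3, the copies carried the same cluster name in 2064, 207 and 235 of the shared barcodes. Which name was right for the others was not tested. Only the deepest copy of a shared barcode was kept, with its own cluster name. This left 25723 long-term cells beside 15094 short-term T22 cells and 8007 short-term T127 cells. Pool totals ran from 32298013 to 55600377 UMIs, and the median UMIs per cell were highest in the short-term T127 pools, at 22712 to 26017 against 7730 to 8528 in the short-term T22 pools. Clusters of at least 50 cells numbered 21 in the long-term pools, 17 in the T22 pools and 14 in the T127 pools. Each short-term model counts as 1 sample with 4 captures, so no p-value was computed. The spread over pools, which may be technical, and exact 95% intervals that cover counting error only stand in its place.

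The authors' names were checked against marker genes. Foxp3 was highest in the cluster labelled regulatory T cells in the long-term and T127 pools, Siglech in plasmacytoid dendritic cells in the same pools, and Ncr1 in NK cells in all 3 settings. Some markers peaked under another label, such as Cd4 in plasmacytoid dendritic cells in the long-term pools. In the T127 pools Epcam peaked in CD14-IL1B and Cd8a in CD4 central memory cells. There CD16-CDKN1C was highest for the macrophage markers Adgre1, at 230 CPM, and Csf1r, at 683 CPM, and second to Macro-M2 for Mrc1, at 802 CPM. Its cells were shallow, with medians of 4706 UMIs long-term, 2407 in T22 and 4922 in T127. The T127 malignant clusters, Malign_0 and Malign_1, were nearly without the epithelial genes Epcam, at 0.893 to 5.87 CPM, and Cdh1, at under 1 CPM. They held the keratin gene Krt8 at 480.2 to 1412 CPM and the matrix gene Dcn at 2579 to 4324 CPM. The T22 malignant clusters differed from each other, with the smooth muscle gene Acta2 at 7275 CPM in long-term Malign_2 and 22.7 CPM in long-term Malign_3. The 4 malignant markers Epcam, Krt8, Krt18 and Cdh1 summed to 1950 CPM in the monocyte cluster CD14-PF4 in the long-term pools, with all 4 present, and to 1093 CPM in CD14-IL1B, where Epcam alone gave 992 CPM. Levels in both clusters are given only in figures and where they enter an order. Both are counted among monocytes and macrophages in the shares of UMIs. In the short-term T127 pools the same markers summed to 864 CPM in CD14-PF4 and 848 CPM in CD14-IL1B, and also to 823 CPM in Macro-others and 690.4 CPM in Macro-MKI67. Most of these sums was Epcam and Cdh1, at 682, 820.0, 771 and 674 CPM together, which T127 malignant cells nearly lacked, and the keratins Krt8 and Krt18 gave 181, 27.8, 51.6 and 16.5 CPM.

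Tgfb1, the ligand gene most widely used by immune cells, was highest in endothelial cells and in monocytes and macrophages in the long-term and T22 pools. In the T127 pools it was highest in Macro-M2, CD16-CDKN1C and NK cells. In the long-term pools endothelial cells ranged from 222 to 498 CPM with a median of 335, and CD16-CDKN1C from 276 to 360 with a median of 320. The CD16-CDKN1C values lay at 337 to 360 CPM in pools 1 to 4 and at 276 to 303 CPM in pools 5 to 8. Macro-M2 divided likewise, at 312 to 347 and 268 to 279 CPM, as did Macro-M1, Macro-others and Macro-MKI67. The division was noticed after the values were seen. In the short-term T22 pools endothelial cells stood at 353, 295, 389 and 439 CPM, and Macro-M2, the cluster that the authors call M2 macrophages, at 368, 392, 422 and 329 CPM. In the short-term T127 pools Macro-M2 led at 425, 427, 399.6 and 429 CPM. CD16-CDKN1C followed at 401 CPM (369 to 419.9), then NK cells at 399.7 CPM (308 to 451), while endothelial cells had 329 CPM (306 to 359). The pool values of these leading clusters overlapped, so their order is not resolved. At the other end were the malignant cells. Malign_2 was lowest in the long-term pools, at 11.3 CPM, and in the short-term T22 pools, at 11.9 CPM. Malign_0 was lowest in the T127 pools, at 69.4 CPM.

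Counting UMIs in place of levels shows which captured cells contributed the Tgfb1 transcripts. Monocytes and macrophages held 79.2% of all Tgfb1 UMIs in the long-term pools (77.4 to 81.0% by pool), 68.7% in the T22 pools and 40.6% in the T127 pools. They were 60.1%, 52.1% and 27.5% of the cells and gave 46.8%, 39.5% and 12.6% of all UMIs. The malignant share was 15.6%, 2.18% and 52.5%, in pools where malignant cells gave 45.8%, 31.8% and 84.1% of all UMIs, so malignant cells contributed less Tgfb1 than their RNA content in each of the 3 settings. Of the markers of platelets, which carry the protein, Gp9, Itga2b and Tubb1 were each under 1 CPM in T127 Macro-M2, where Ppbp stood at 113 CPM. Their sum in Macro-M2 was 0.769 CPM in T22 (0.513 to 0.885) and 114 CPM in T127 (62.9 to 165), the latter nearly all Ppbp.

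**Figure D1:**
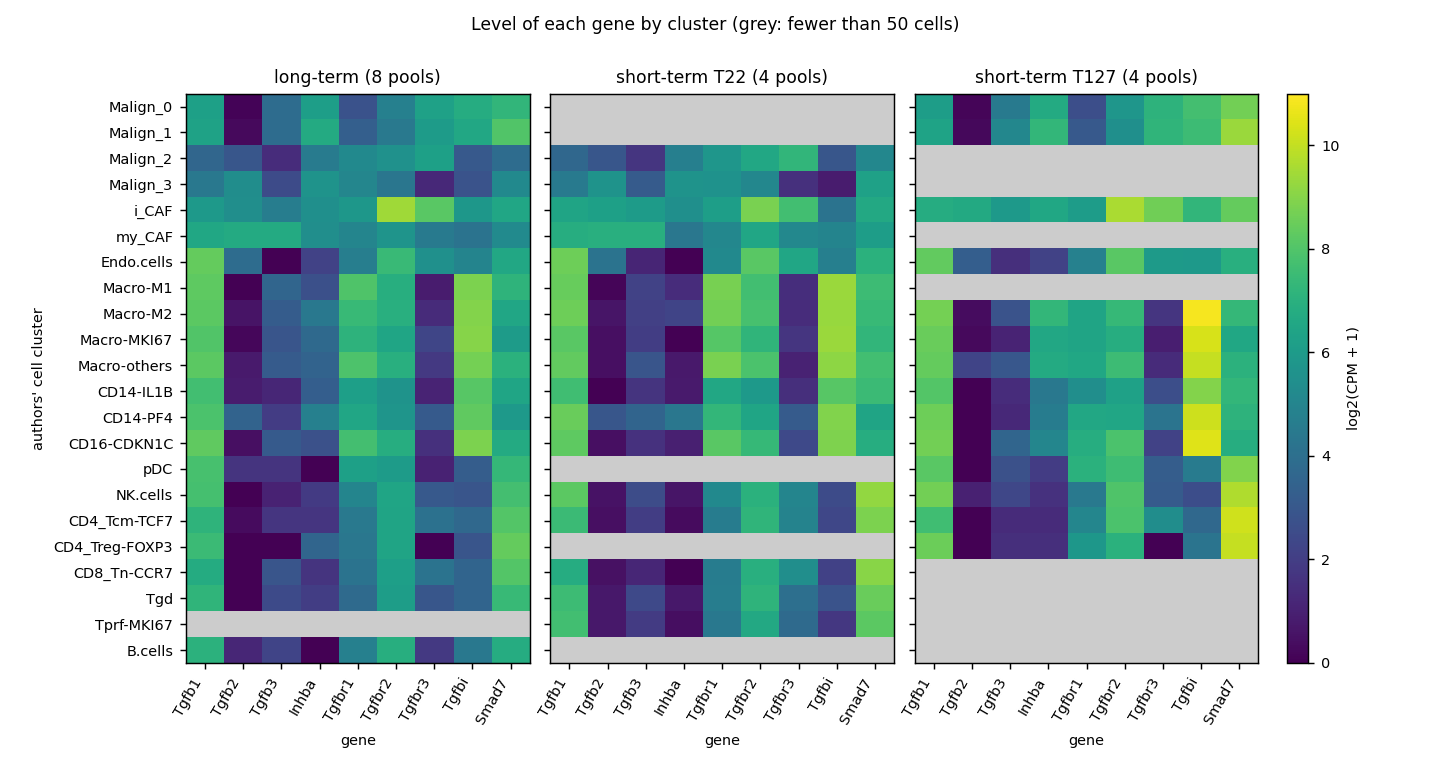
Level of each of the 9 genes (columns, as log2 of CPM plus 1, by color) in each of the authors' clusters (rows) for the long-term, short-term T22 and short-term T127 pools, with clusters under 50 cells in grey. Tgfbr2 and Tgfbr3 are brightest in i_CAF, Tgfbi in the macrophage and monocyte rows (up to 1842 CPM in T127 Macro-M2), and Tgfb2 is dark in Malign_0 and Malign_1.

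Tgfb2 and Tgfb3, the ligand genes better known from mesenchyme, had their highest summed levels in clusters that the authors named fibroblasts. Tgfb2 in long-term my_CAF, the myofibroblastic cancer-associated fibroblasts, ran from 36.6 to 156 CPM with a median of 90.7 over 8 pools, and in i_CAF, the inflammatory fibroblasts, from 29.7 to 49.0 with a median of 43.3. The my_CAF cluster held Rgs5 at 4203 CPM long-term and 9746 CPM in T22, the highest of all clusters, and Acta2 at 7437 and 3003 CPM. Its Col1a1 was 1208 and 1616 CPM. Its Dcn was 124 and 67.7 CPM, against 6544 and 4274 CPM in i_CAF, so these markers did not settle the name fibroblast. Only 117 long-term cells were my_CAF, and its pool values overlapped those of i_CAF, which in turn overlapped the malignant cluster Malign_3 at 19.4 to 53.0 CPM. In the short-term T22 pools Tgfb2 stood at 113, 48.6, 62.3 and 287 CPM in my_CAF and at 62.4, 88.4, 84.4 and 67.2 CPM in i_CAF. In the short-term T127 pools, where only 8 cells were my_CAF, i_CAF had 85.3, 81.3, 115 and 122 CPM, apart from the next cluster, endothelial cells, at 8.84 CPM. Fibroblasts by label, i_CAF and my_CAF together, were 3.28% of the long-term cells, 2.78% of the T22 cells and 1.29% of the T127 cells. They held 36.5%, 54.0% and 81.7% of the Tgfb2 UMIs. Malignant cells held 56.6%, 41.9% and 8.96%, beside 45.8%, 31.8% and 84.1% of all UMIs. Over the long-term pools together most Tgfb2 UMIs were thus in malignant cells. By long-term pool the malignant share ran from 35.4 to 66.5% and the fibroblast share from 24.3 to 55.1%, with overlap.

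Tgfb3 followed a similar order, with my_CAF first at 37.9 to 170 CPM in the long-term pools (median 104), above every pool of i_CAF at 20.5 to 28.5 CPM. The malignant T127 clusters came next, both at 13.8 CPM. In the short-term T127 pools i_CAF led with 61.8 CPM (49.2 to 72.8), then Malign_1 with 33.1 CPM and Malign_0 with 21.9 CPM, and none of these neighbours overlapped. The few fibroblasts of those pools held 2.61% of the Tgfb3 UMIs and the malignant cells 94.4%, beside 0.975% and 84.1% of all UMIs. In the T22 pools 56.3% were in fibroblasts and 12.1% in malignant cells, beside 5.33% and 31.8% of all UMIs. Fibroblasts thus held more Tgfb3 than their share of all UMIs in both models.

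Inhba, which encodes the subunit of activin A, had most of its UMIs in malignant cells. They held 81.4% in the long-term pools, 76.3% in the T22 pools and 87.5% in the T127 pools, beside 45.8%, 31.8% and 84.1% of all UMIs. In the T127 pools the share thus lay near the malignant share of all UMIs, and the malignant level of 129 CPM was below the 155 CPM of Macro-M2. Malign_1 led in the long-term pools at 77.1 to 160.4 CPM with a median of 109, then Malign_0 at 55.5 to 86.6 with a median of 71.5, and the values of these neighbours overlapped. In the short-term T127 pools Malign_1 stood at 176, 140, 154 and 151 CPM and Macro-M2 at 152, 146, 173 and 151 CPM, again overlapping. Long-term i_CAF had a median of 31.2 CPM over 8 pools but 146 CPM in pool 3, and its summed level of 44.1 CPM became 31.2 CPM without that pool.

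Among the receptor genes, Tgfbr1, encoding the type I kinase, was mainly a macrophage and monocyte transcript. The 4 highest long-term clusters were Macro-M1 at 248 CPM (194 to 284), Macro-others at 243 CPM (230.4 to 252), CD16-CDKN1C at 206 CPM (183 to 231) and Macro-M2 at 169 CPM (150.2 to 184), each overlapping the next. In the T22 pools Macro-others stood at 417, 447, 453 and 445 CPM. The T127 pools had no macrophage cluster near that level, and plasmacytoid dendritic cells led them at 130.3 CPM (118.8 to 144), overlapping CD16-CDKN1C at 113 CPM (105 to 119.0). Malign_0 was lowest in the long-term and the T127 pools, at 5.90 and 5.24 CPM. Monocytes and macrophages held 90.5%, 84.2% and 60.1% of the Tgfbr1 UMIs in the long-term, T22 and T127 pools, beside 46.8%, 39.5% and 12.6% of all UMIs.

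Tgfbr2, encoding the ligand-binding type II kinase, was highest in i_CAF in each setting, with no pool overlapping the next cluster. Long-term i_CAF ran from 485 to 826 CPM with a median of 668, against endothelial cells at 94.1 to 249.7 with a median of 184. The T22 pools of i_CAF stood at 443, 407, 479.5 and 444 CPM and the T127 pools at 825, 813, 691 and 827 CPM. Endothelial cells were next in both, at 293 CPM in each model. Within the long-term pools the i_CAF values fell into a lower set, pools 1 to 4 at 485 to 561 CPM, and a higher set, pools 5 to 8 at 775 to 826 CPM. This division was noticed after the values were seen, and pools 1 to 3 are those that share barcodes.

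Tgfbr3, encoding betaglycan, was also led by i_CAF in each setting without overlap, at 225 to 349 CPM long-term (median 292), 192 to 220 CPM in the T22 pools and 291 to 467 CPM in the T127 pools. Malignant clusters came second: Malign_0 at 77.9 CPM long-term, Malign_2 at 150.1 CPM in T22 and Malign_1 at 146 CPM in T127. The long-term i_CAF values lay at 225 to 275 CPM in pools 1 to 4 and at 308 to 349 CPM in pools 5 to 8, the division seen for Tgfbr2. Macrophages were nearly without it, with Macro-M2 at 1.65 CPM in the T22 pools. Malignant cells held 72.0%, 72.4% and 96.4% of the Tgfbr3 UMIs in the long-term, T22 and T127 pools, beside 45.8%, 31.8% and 84.1% of all UMIs.

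Of the response genes, Tgfbi was a macrophage and monocyte gene. Its 5 highest long-term clusters were Macro-MKI67 at 512 CPM (399.7 to 647), Macro-M2 at 491 CPM, Macro-M1 at 460.4 CPM, CD16-CDKN1C at 452 CPM and Macro-others at 419 CPM, each overlapping the next. T127 Macro-M2 reached 1872, 1800, 1876 and 1827 CPM, above every pool of the next cluster, CD16-CDKN1C, at 1541, 1477, 1402 and 1136 CPM. Malign_3 was lowest in long-term and T22 cells, at 6.02 and 0.763 CPM. Macrophages and monocytes held 98.2% of Tgfbi UMIs in the T22 pools and 52.6% in the T127 pools, beside 39.5% and 12.6% of all UMIs. In the T127 pools malignant cells held 46.9% of Tgfbi UMIs, beside 84.1% of all UMIs.

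Smad7 was highest in lymphocytes. Long-term regulatory T cells ran from 211 to 532 CPM with a median of 309, and CD4 central memory cells from 150.2 to 323 with a median of 255, with overlap. In the T22 pools NK cells stood at 633, 610, 543 and 614 CPM. In the T127 pools CD4 central memory cells had 1073, 1185, 1334 and 1133 CPM and regulatory T cells 936 to 1375 CPM, with NK cells and then Malign_1 next at 826 and 647 CPM. Lymphoid cells held 55.6% of the Smad7 UMIs in the T22 pools, beside 22.6% of all UMIs. Malignant cells held 92.3% of the Smad7 UMIs in the T127 pools, beside 84.1% of all UMIs. Malign_2 was the lowest cluster in the long-term pools, at 13.6 CPM, and in the short-term T22 pools, at 32.7 CPM.

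**Figure D2:**
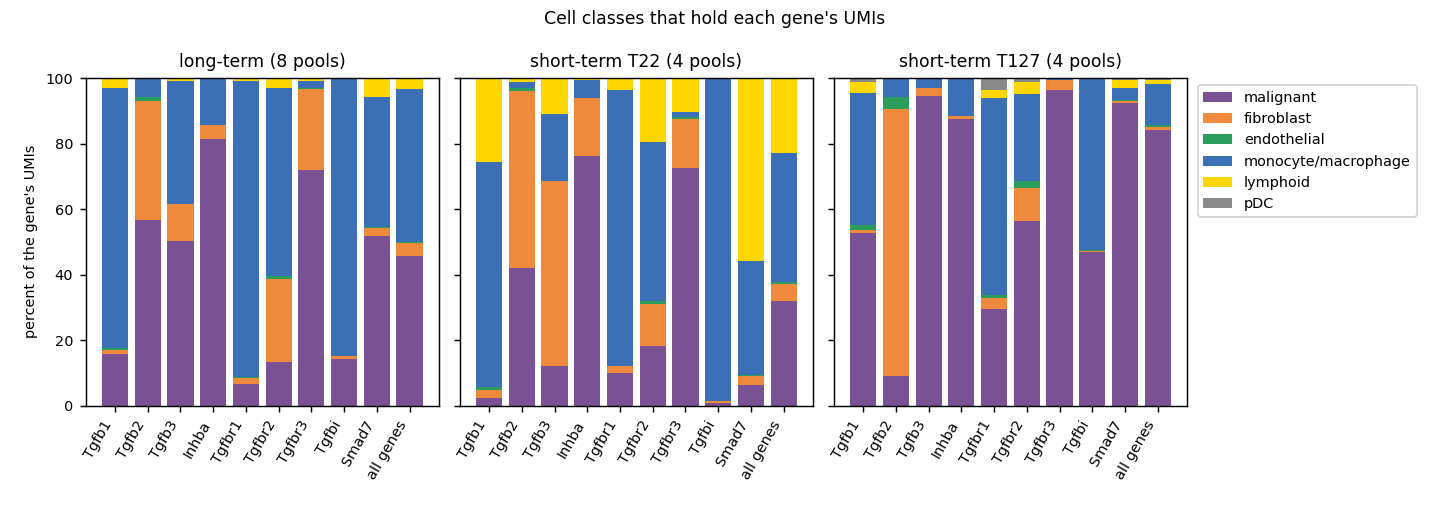
Share of each gene's UMIs (vertical axis, percent) found in malignant, fibroblast, endothelial, monocyte/macrophage, lymphoid and plasmacytoid dendritic cells, with all genes together as the last bar of each panel. Monocytes and macrophages hold 79.2% of long-term Tgfb1, fibroblasts 81.7% of T127 Tgfb2, and malignant cells 96.4% of T127 Tgfbr3.

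The malignant cells of both models were then compared, in the short-term pools by the model on the label and in the long-term pools by cluster. The short-term T22 pools held Malign_2 and Malign_3 (1954 cells) and the T127 pools Malign_0 and Malign_1 (4878 cells), and the same names in the long-term pools were taken as T22 (2259 cells) and T127 (4603 cells). The long-term clusters were formed on expression, per the paper after a choice of highly variable genes. Whether these 9 were among them is not known here, so that contrast is a description. A gene was called where the models lay at least 2-fold apart and their pool values did not overlap. By that rule 2 of the 9 genes, Tgfb2 and Tgfbr1, were higher in T22 and 5 of 9, Tgfb1, Tgfb3, Inhba, Tgfbi and Smad7, were higher in T127, in the long-term and in the short-term pools alike. Over all genes with at least 20 UMIs the rule called 20.9% higher in T22 and 16.9% higher in T127 in the long-term pools, and 26.8% and 21.3% in the short-term pools.

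Tgfb2 and Tgfbr1 were the pair on the T22 side. Tgfb2 in long-term T22 malignant cells ran from 11.3 to 29.8 CPM with a median of 21.3, while T127 ran from 0 to 0.304 CPM and rested on 13 UMIs in all. The summed levels, 20.5 and 0.13 CPM, were 158-fold apart (95% interval 92.0 to 299). Short-term T22 pools had 11.4, 12.5, 11.4 and 8.60 CPM and the T127 pools at most 0.203 CPM, 77.6-fold apart (52.0 to 121). Tgfbr1 in the long-term pools ran from 29.0 to 42.7 CPM in T22 (median 33.5) and from 5.52 to 9.01 in T127 (median 7.11), a ratio of 4.77 (4.35 to 5.23). Its short-term ratio was 8.65 (8.06 to 9.28), with T22 at 51.2 to 57.3 CPM and T127 at 5.81 to 6.64 CPM. No pool of one model reached the range of the other for either gene.

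Smad7 and Tgfbi stood farthest to the T127 side. Smad7 ran from 16.2 to 29.1 CPM in long-term T22 malignant cells (median 23.0) and from 181 to 204 in T127 (median 195), 8.47-fold higher in T127 (7.91 to 9.06). In the short-term pools it was 13.9-fold higher (13.3 to 14.5), at 37.1 CPM in T22 and 515 CPM in T127. Tgfbi ran from 3.36 to 10.4 CPM in long-term T22 (median 6.50) and from 90.8 to 113 in T127 (median 106), a 15.3-fold difference (13.5 to 17.3). The short-term difference was 32.7-fold (29.3 to 36.6), between 6.12 and 200 CPM. The 5 monocyte and macrophage markers summed in malignant cells to 96.4 CPM in long-term T22 and 62.4 CPM in long-term T127, and to 37.5 and 38.2 CPM in the short-term pools, beside 3317 CPM in long-term Macro-M2. Their part in the Tgfbi levels was not tested.

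The T127 side held 3 of the 4 ligand genes. Tgfb1 ran from 9.18 to 18.2 CPM in long-term T22 malignant cells (median 14.6) and from 70.6 to 83.7 in T127 (median 77.2), 5.22-fold higher (4.80 to 5.69). Short-term levels of 12.8 and 75.1 CPM were 5.84-fold apart (5.41 to 6.32). Tgfb3 had long-term medians of 2.90 and 14.4 CPM, a 4.75-fold difference of the summed levels (3.92 to 5.80), and short-term levels of 2.76 and 27.1 CPM, 9.83-fold apart (8.33 to 11.7). For both genes every T127 pool lay above every T22 pool. Inhba had the smallest of the called differences: long-term T22 ran from 25.4 to 39.0 CPM and T127 from 72.9 to 100.2, 2.48-fold apart (2.34 to 2.63), and short-term levels of 28.1 and 129 CPM were 4.59-fold apart (4.35 to 4.84).

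**Figure D3:**
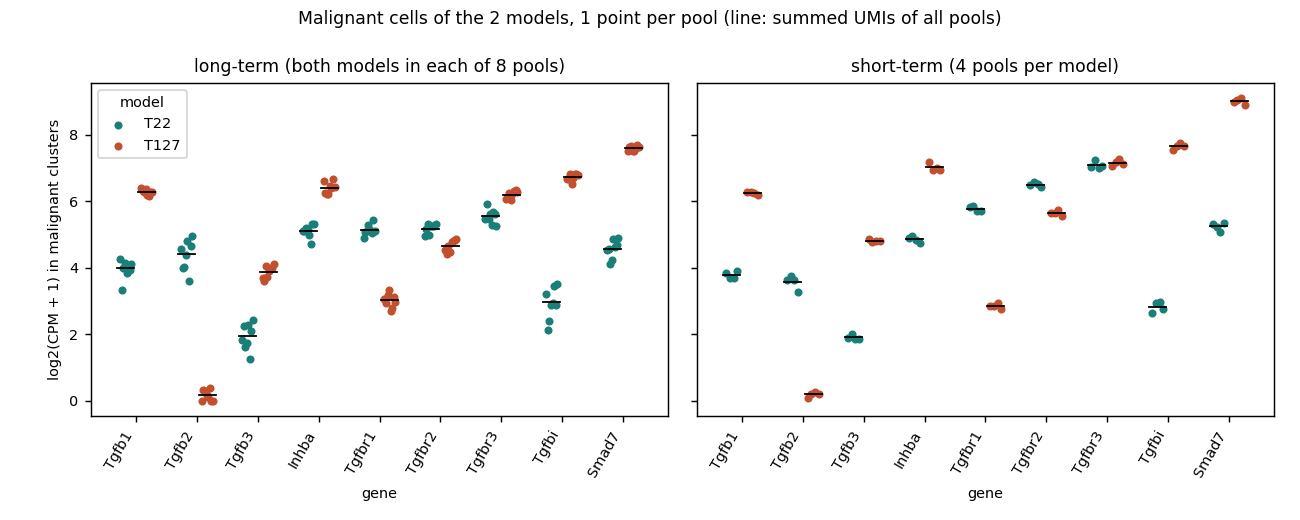
Level of each gene (log2 of CPM plus 1) in malignant cells, 1 point per pool, with T22 in teal, T127 in orange and a line at the level of the summed UMIs. Tgfb2 and Tgfbr1 sit higher in T22 and Tgfb1, Tgfb3, Inhba, Tgfbi and Smad7 higher in T127 in both panels, while the short-term Tgfbr3 points overlap (128 to 149 against 131 to 154 CPM).

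The remaining receptor genes lay under the 2-fold limit. Tgfbr2 was 1.44-fold higher in T22 long-term (30.1 to 38.7 against 20.2 to 28.2 CPM) and 1.83-fold higher short-term (84.7 to 94.1 against 46.3 to 51.9 CPM), with no overlap of pools in either. Tgfbr3 was 1.58-fold higher in T127 long-term without overlap (64.1 to 80.5 against 37.1 to 59.8 CPM), and in the short-term pools the ratio was 1.05 with overlap and an interval of 1.02 to 1.08. Because the T22 clusters were of unequal size and differed in these genes, the mean of the 2 clusters of each model, each counted equally, gave other short-term ratios. Tgfbr3 was then 1.87-fold higher in T127, Tgfb2 196-fold higher in T22, Tgfb3 5.49-fold higher in T127 and Tgfbi 53.3-fold higher in T127.

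Both models were present in each long-term pool, so the contrast was also taken inside each pool, where the capture is shared. All 9 genes kept one direction in 8 of 8 pools. The fold ran from 6.45 to 12.4 for Smad7, from 10.5 to 30.1 for Tgfbi, from 4.60 to 8.47 for Tgfb1, from 2.91 to 10.7 for Tgfb3 and from 2.04 to 3.27 for Inhba, all higher in T127, and from 1.17 to 2.08 for Tgfbr3. On the T22 side it ran from 3.93 to 6.21 for Tgfbr1, from 1.35 to 1.74 for Tgfbr2, and from 37.0 to 356 for Tgfb2 in the 5 pools where T127 had any Tgfb2 UMI.

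The malignant clusters of a model did not share one level of these genes. In T22, Tgfb2 was a Malign_3 gene: Malign_2 had 6.80 CPM and Malign_3 41.0 CPM long-term, and the short-term pools had 7.00, 7.12, 7.13 and 5.68 CPM against 40.5, 73.6, 54.0 and 38.2 CPM. Tgfbr3 went the other way, at 75.9 CPM in long-term Malign_2 and 1.39 CPM in Malign_3, a 54.5-fold difference (35.9 to 87.1), and short-term at 150.6, 162, 140.1 and 147 CPM against 2.16, 1.80, 1.74 and 1.77 CPM. No pool overlapped in these contrasts. Tgfbr2 was higher in Malign_2, at 46.2 against 18.9 CPM long-term and 95.7 against 32.8 CPM short-term, and Smad7 was higher in Malign_3, at 36.0 against 13.6 CPM and 76.7 against 32.7 CPM. Since the clusters were drawn from expression, perhaps of these genes too, these values describe the clusters and test nothing.

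In T127 the clusters also differed. Smad7 stood at 149 CPM in long-term Malign_0 and 256 CPM in Malign_1, and short-term at 391, 421, 408 and 379 CPM against 635, 661, 695 and 594 CPM. Inhba had 105 CPM in short-term Malign_0 and 156 CPM in Malign_1 without overlap, while its long-term pools overlapped. Tgfb3 was at 13.8 CPM in both long-term clusters and at 21.9 and 33.1 CPM in the short-term ones. Tgfbr1 was 1.56-fold higher in Malign_1 long-term and 1.41-fold higher short-term, while in T22 it was 1.14-fold higher in Malign_2 in both settings. In both models its long-term pool values overlapped between the clusters and its short-term values did not.

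The short-term pools allow the same contrast in cells that are not malignant, with the caution that model and pool set cannot be told apart. In Macro-M2 (670 T22 cells and 1174 T127 cells) Tgfbr1 was called higher in T22 and Inhba and Tgfbi higher in T127, so 1 and 2 of the 9 genes beside 7.6% and 7.88% of all genes tested. Another 5 were not called, and Tgfb2 had too few UMIs.

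Inhba in Macro-M2 stood at 1.61, 13.3, 0.513 and 0 CPM in the T22 pools and at 152, 146, 173 and 151 CPM in the T127 pools. The summed levels, 3.84 and 155 CPM, were 40.3-fold apart (28.9 to 58.0). T22 pool 2 held most of the 35 T22 UMIs, and without it the difference was 212-fold. Other macrophage clusters showed the same order: Macro-others had 0.704 CPM in T22 and 176, 141, 28.9 and 94.3 CPM in the T127 pools, and Macro-MKI67 had 0 UMIs in T22 and 413 in T127, at least 166-fold higher when 3 UMIs are allowed over the T22 pools. Epcam and Cdh1 together also differed between the models in these clusters, at 53.0 CPM in T22 and 771 CPM in T127 in Macro-others and at 229 and 674 CPM in Macro-MKI67. Krt8 and Krt18, the 2 malignant markers that T127 malignant cells did carry, stood together at 18.4 and 51.6 CPM and at 13.9 and 16.5 CPM. The part of either pair in the Inhba differences was not tested. After each cell was thinned to 3000 UMIs, 14.4% of T127 Macro-M2 cells held an Inhba UMI (12.4 to 16.5%), against 0.448% of T22 Macro-M2 cells (0.0924 to 1.30%). The unthinned shares were 25.2% and 1.34% at median depths of 11285.5 and 13221 UMIs. In the T127 NK cells 0 of 131 thinned cells held one, with an upper bound of 2.78%. Unthinned, the T127 NK cells held 2 Inhba UMIs in all, both in 1 of the 4 pools, or 1.998 CPM.

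Transcripts of T127 malignant cells were looked for in the same macrophages. T127 Macro-M2 held Krt8 at 1.05%, Krt18 at 1.06%, Dcn at 0.963% and Ltbp1 at 0.859% of the level in T127 malignant cells, and Inhba at 120.2% of it. Epcam and Cdh1 were at 144 and 135 CPM in T127 Macro-M2 and at 1.43 and 0.37 CPM in T127 malignant cells. The 4 malignant markers thus summed to 298 CPM (261 to 314) in T127 Macro-M2 and 72.0 CPM (63.0 to 90.9) in T22 Macro-M2, and the 5 monocyte and macrophage markers to 5403 and 3258 CPM. Of those 5, Mrc1, Cd14 and Itgam were higher in T127, with Mrc1 at 1047 CPM in T127 and 186 CPM in T22. Adgre1, at 125 and 154 CPM, and Csf1r were higher in T22. The proliferation gene Mki67 was at 38.9 CPM in T127 and 95.3 CPM in T22. The cells under this label thus differed between the models in these markers. The part of all these transcripts in the Macro-M2 contrasts was not tested.

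Tgfbr1 in Macro-M2 ran against Inhba, with T22 pools at 373, 387, 457 and 415 CPM and T127 pools at 83.4, 91.8, 88.1 and 81.2 CPM, 4.71-fold higher in T22 (4.41 to 5.03). Macro-others had 441 and 91.7 CPM, Macro-MKI67 276 and 85.7 CPM, and CD16-CDKN1C 287 and 113 CPM, each without overlap. Tgfbi in Macro-M2 was at 584, 625, 592 and 680.0 CPM in T22 and at 1872, 1800, 1876 and 1827 CPM in T127, 2.96-fold higher (2.88 to 3.05). The T127 pools were also above the T22 pools in CD16-CDKN1C, at 1398 against 466 CPM, and in Macro-others, at 1033 against 563 CPM. For Tgfb1, 375 and 421 CPM in Macro-M2 overlapped, and Tgfbr2, at 220 and 163 CPM, was 1.35-fold higher in T22 without overlap.

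**Figure D4:**
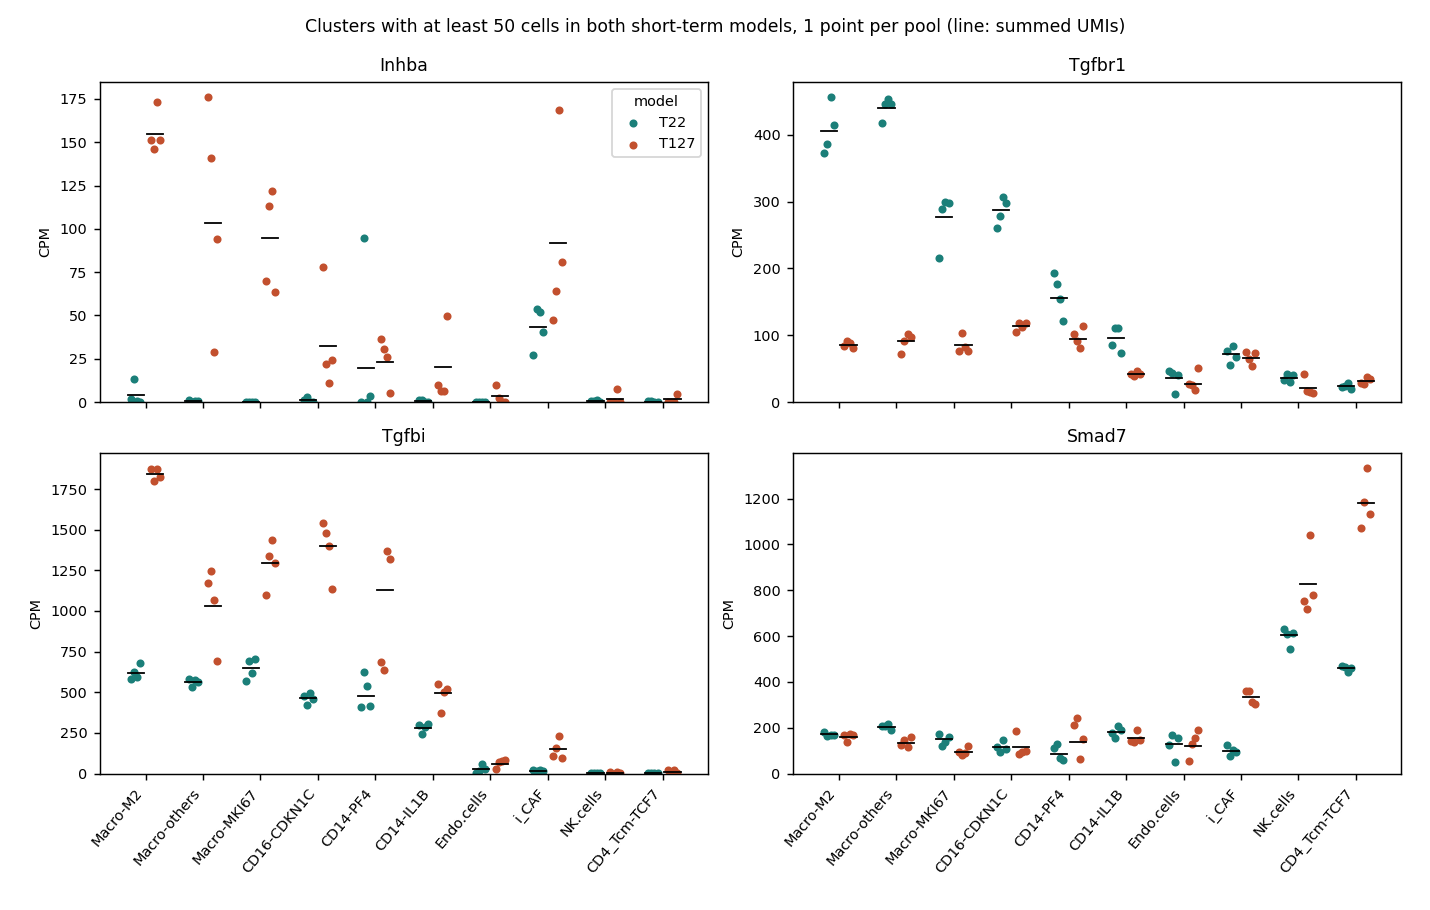
Inhba, Tgfbr1, Tgfbi and Smad7 (CPM, linear axis) in clusters with at least 50 cells in both short-term models, 1 point per pool with T22 in teal, T127 in orange and a line at the summed level. Macro-M2 Inhba is at most 13.3 CPM in T22 and at least 146 CPM in T127, and Tgfbr1 lies higher in T22 in the macrophage clusters.

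In i_CAF (291 T22 cells and 95 T127 cells) none of the 9 genes was called higher in T22, and Tgfbi and Smad7, 2 of 9, were higher in T127, beside 8.82% and 3.95% of all genes tested. Tgfbi stood at 20.4, 15.3, 20.3 and 13.2 CPM in T22 and 109, 158, 234 and 92.4 CPM in T127, 8.71-fold apart (7.03 to 10.9). Smad7 stood at 125, 74.3, 101 and 94.8 CPM against 359, 361, 312 and 305 CPM, 3.39-fold apart (3.04 to 3.78). Of the receptor genes, Tgfbr2 at 444 against 786 CPM (1.77-fold) and Tgfbr3 at 201 against 388 CPM (1.93-fold) lay under the limit without overlap, while Tgfbr1, at 71.3 and 66.4 CPM, overlapped. Monocyte and macrophage markers summed to 29.2 CPM (17.7 to 46.8) in T22 i_CAF and to 119 CPM (10.7 to 283) in T127 i_CAF, and their part in the Tgfbi difference was not tested.

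Endothelial cells (88 and 118 cells) had none of the 9 genes called in either direction, with 7 not called and Tgfb3 and Inhba at too few UMIs, beside 2.39% of all genes higher in T22 and 2.04% higher in T127. Tgfb1 was at 376 and 329 CPM and Tgfbr2 at 293 CPM in both, with overlapping pools. Single pools set some values in these few cells: the log2 ratio of T22 to T127 of Tgfb2 was 0.95, and -0.17 without T22 pool 2, and that of Tgfbi was -1.25, and -1.85 without T22 pool 3. Among lymphocytes, CD4 central memory cells had Smad7 at 471, 466, 445 and 461 CPM in T22 and 1073, 1185, 1334 and 1133 CPM in T127, 2.56-fold apart. NK markers in this cluster summed to 594 CPM in T22 and 1216 CPM in T127, where Nkg7 was at 938 CPM and Ncr1 at 278 CPM. In T127 the cluster also held the T cell markers Cd8a at 108 CPM and Trdc at 241 CPM. The clusters labelled CD8 and gamma delta T cells had only 18 and 17 cells in those pools. The part of these NK, Cd8a and Trdc transcripts in the Smad7 difference was not tested. NK cells had 603 and 826 CPM, 1.37-fold apart.

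The rest of the pathway was read from fixed lists of 10 latency and activation genes, 4 activin and antagonist genes, 7 other receptors, 9 Smads and regulators, and a set of response genes of which 5 are given, with Ltbp2 and Skil each on more than 1 list. In malignant cells the latency list held 5 genes higher in T22 (Ltbp2, Lrrc32, Itgb6, Itgb8 and Thbs1) and 3 higher in T127 (Ltbp1, Ltbp3 and Ltbp4), in the long-term and short-term pools alike, beside 20.9% and 16.9% of all genes long-term and 26.8% and 21.3% short-term. Ltbp1, which binds latent TGF-beta to matrix, was at 17.7 CPM in T22 and 167 CPM in T127 long-term, and at 15.2 and 344 CPM short-term. Thbs1, encoding an activator of latent ligand, was at 78.9 and 2.43 CPM long-term and at 136 and 4.50 CPM short-term. The median log2 ratio of T22 to T127 over this list was 0.95 long-term and 1.55 short-term, beside 0.08 and 0.04 over all genes.

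Of the 4 activin and antagonist genes 2 (Inhbb and Fst) were higher in T22 long-term and 3 short-term, with Inha added, while Fstl3 was higher in T127 in both, beside background shares of 20.9% and 26.8% higher in T22 and 16.9% and 21.3% higher in T127. Inhbb, encoding the other activin subunit, had 86.0 CPM in T22 and 1.06 CPM in T127 long-term and 115 and 0.307 CPM short-term, while Inhba was higher in T127. Fst, encoding follistatin, had 223 and 9.70 CPM long-term and 598 and 11.2 CPM short-term. Within T22 it was higher in Malign_2, at 366 CPM against 8.55 CPM in Malign_3 long-term and 663 against 5.15 CPM short-term, while Inhbb was higher in Malign_3, at 131 against 55.7 CPM and 256 against 99.4 CPM.

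Of the 7 other receptors 3 were higher in T22 in both settings (Acvr1b, Acvrl1 and Bambi), with Acvr2b added short-term, and 2 were higher in T127 (Acvr1 and Eng). The shares over all genes were 20.9% and 26.8% for T22 and 16.9% and 21.3% for T127, so 2 of 7 was near the background. Bambi, encoding a decoy receptor, had 42.9 and 0.409 CPM long-term and 28.3 and 0.0682 CPM short-term. Of the 9 Smads and regulators 4 were higher in T127 long-term (Smad3, Smad4, Ski and Smurf1) and 6 short-term, with Smurf2 and Tgif1 added, beside 16.9% and 21.3% of all genes, and Smad6 was higher in T22 short-term. The median log2 ratio of this list was -0.80 long-term and -1.11 short-term, against 0.08 and 0.04 over all genes. Among the response genes Ltbp2, Ccn2 and Tgfb1i1 were higher in T22 in both settings, while Pmepa1 and Skil were called in neither. Ccn2, a matricellular gene, had 302 and 3.56 CPM long-term and 483 and 1.35 CPM short-term. Tgfbi and Smad7, by contrast, were higher in T127.

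**Figure D5:**
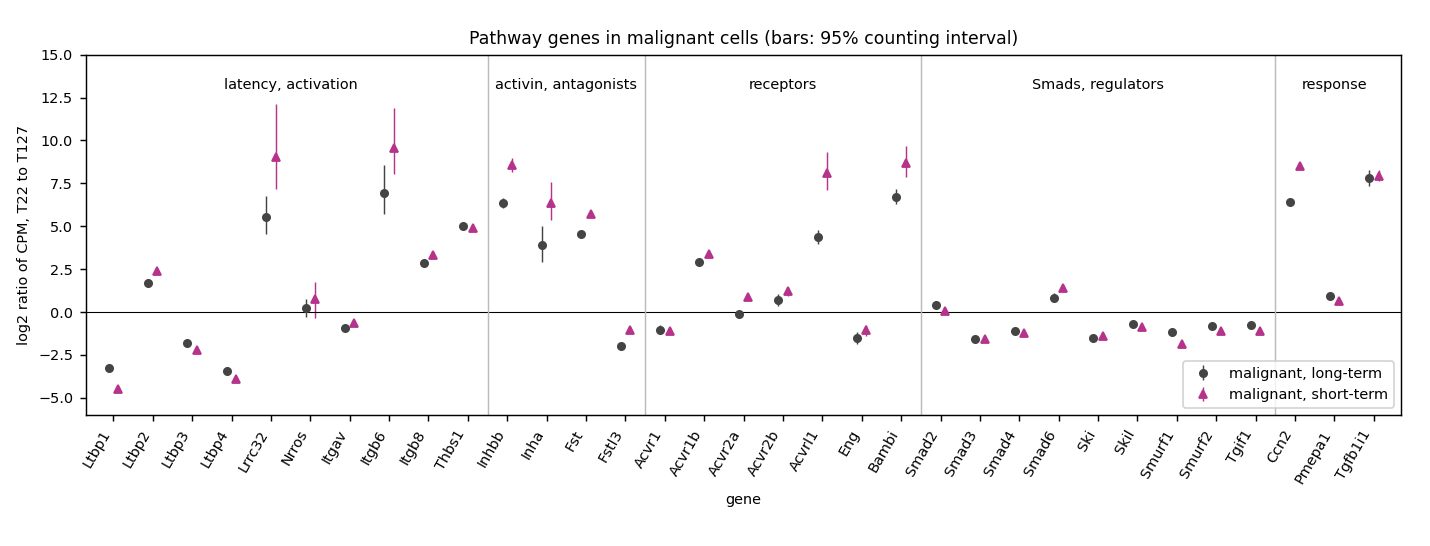
Log2 ratio of T22 to T127 level in malignant cells for the other pathway genes, grouped by list, with circles for long-term and triangles for short-term pools and bars for the 95% counting interval. Inhbb, Fst, Bambi and Ccn2 lie far above 0, and Ltbp1 and Ltbp4 far below it.

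In Macro-M2 the response genes Ccn2, Pmepa1 and Tgfb1i1 were called higher in T22. Pmepa1, a TGF-beta induced gene that limits SMAD signalling, was at 1321 CPM in T22 (1281 to 1353) and 514 CPM in T127 (495 to 526), beside 521 and 332 CPM in the malignant cells. The other calls were of low levels: Ccn2 at 7.69 and 0.141 CPM and Tgfb1i1 at 2.97 and 0.351 CPM, and likewise Fst, higher in T22 at 5.93 and 1.90 CPM. T22 malignant cells held these 3 genes at 483, 106 and 598 CPM, and T22 NK cells also carried Ccn2 at 9.59 CPM and Fst at 8.30 CPM. The part of malignant transcripts in these 3 calls was not tested. Thbs1 went the other way, at 53.2 and 702 CPM, and the part of the platelet gene Ppbp, which was also higher in T127 Macro-M2, in that difference was not tested. Ltbp1 and Ltbp4 were also called higher in T127, but at 0 and 2.95 CPM and at 0.659 and 5.76 CPM. Those T127 levels were 0.859% and 1.996% of the malignant level, beside 1.05% for Krt8, and the part of malignant transcripts in them was not tested either. Itgb8 was higher in T22, Acvr2a and Bambi were higher in T127, and none of the 9 Smads and regulators was called, beside 7.6% of all genes higher in T22 and 7.88% higher in T127. In i_CAF, where 8.82% of all genes were called higher in T22 and 3.95% higher in T127, the list genes called were these: Ltbp4, Itgav, Fstl3, Eng and Ccn2 were higher in T22, Ltbp1, Inhbb and Bambi were higher in T127, and the median log2 ratio of the Smads and regulators was -0.02. Endothelial markers also differed in i_CAF, at a summed 150.2 CPM in T22 (144 to 162) and 41.0 CPM in T127 (27.8 to 47.9), with Cdh5 at 0 in both, and their part in the call of Eng, an endothelial gene, at 86.4 and 31.1 CPM, was not tested. Endothelial cells had no gene of any list called, where only 2.39% of all genes were higher in T22 and 2.04% higher in T127. Too few UMIs kept 4 of the 10 latency genes, 3 of the 4 activin and antagonist genes and 2 of the 7 other receptors from being tested there.

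Genes with the most similar pattern over clusters were found by Pearson correlation of log2(CPM + 1) over the 21 long-term clusters, and the same pair was then read over 17 T22 and 14 T127 clusters. The points share libraries, depth and cell ancestry, so the coefficients are descriptions. With 10 CPM added in place of 1, the closest genes of Tgfb2, Tgfb3 and Tgfbr3 left the first 3, among 13 of the 27 genes so ranked that did. Tgfb1 was closest to Gnai2 (r of 0.959 long-term, 0.951 in T22, 0.741 in T127), Tgfbr1 to Ntpcr (0.945, 0.935, 0.860) and Tgfbi to Pilrb2 (0.957, 0.933, 0.930). Tgfb2 was closest to Lmcd1 (0.943, 0.902, 0.613) and Inhba to Phlda1 (0.919, 0.851, 0.717). Tgfbr3 was closest to Reck (0.856, 0.831, 0.862) and Tgfbr2 to Igf1 (0.781, 0.615, 0.749). For Tgfb3 the closest gene was Fance (0.886, 0.528, 0.478), followed by Zfp469 (0.824, 0.957, 0.824). Smad7 was closest to 4933434E20Rik (0.883, 0.459, 0.218), and Asxl2 followed after Ankzf1 (0.860, 0.878, 0.714).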

How the data were processed

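Raw UMI counts per cell were deposited by the authors with cluster names for 16 pools. Per the methods and the submitters' processing notes, Cell Ranger 6.0.0 aligned reads to GRCm38 with introns counted, low-quality cells and Scrublet doublets were removed, and cells were clustered. No further cell filter was applied here. Counts were summed per cluster, pool and experiment and divided by the UMIs of the same cells. Intervals are exact Poisson or conditional binomial at 95%. A gene was tested with at least 20 UMIs in both groups together and called at 2-fold or more with pool values that did not overlap. Named genes are the 9 genes, the fixed pathway lists and the 3 most similar genes of each; the lists and genes were chosen with earlier results of these data known. Cells were thinned to 3000 UMIs for shares. Counting used pandas 2.3.3 and numpy 2.4.6 under Python 3.11.15, intervals came from scipy 1.17.1 and plots from matplotlib 3.10.9. The calling rule and the ratio interval were tried on simulated counts that had counting error only, without further spread between pools. Barcode removal, sums per cluster and thinning were not tried on simulated data. Alternatives were cell depth, doublets, denominator, weighting, thresholds, shared barcodes and each pool left out. 1 response gene of the fixed lists is not reported here, so no count over that list is given. No sequence or coordinate is given, since the reference at hand was not of the build used.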

Additional observations from a re-analysis of the deposited data

Results flagged for a closer look

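Values of 118 groups of 4 or 8 pools were screened for a pool far from the others, and 4 stood apart, where chance gives about 1 in 20 groups. Tgfb1 in short-term T127 Macro-M2 was lowest in pool 3, at 399.6 CPM against 425 to 429 CPM in the others. Smad7 in the same cells was lowest in pool 2, at 137 CPM against 168 to 172 CPM. Tgfbr2 in short-term T127 i_CAF was lowest in pool 3, at 691 CPM against 813 to 827 CPM. Inhba in long-term i_CAF was highest in pool 3, at 146 CPM against 17.3 to 52.3 CPM, and the summed level of 44.1 CPM was 31.2 CPM without that pool.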

How the results depend on the processing

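No paired analysis was possible because the T22 and T127 short-term pools share only a number and no result comes from a test; the long-term ratios were also taken inside each pool. No called ratio between T22 and T127 changed direction, and 6 that were not called changed sign, among them i_CAF Tgfb3, from 0.08 to -0.32 without the top 5% of cells by UMIs. Of 540 recomputed ratios 523 stayed within 1 SD of the pool values and 17 moved. Leaving mitochondrial and ribosomal protein genes out of the UMI total raised the 27 highest levels by 1.14 to 1.41 times, 16 of them beyond the pool SD. Weighting the 2 clusters of each model equally moved the short-term malignant log2 ratios of T22 to T127 of Tgfb1 to -2.19 (from -2.55), Tgfb2 to 7.61 (from 6.28), Tgfb3 to -2.46 (from -3.30), Inhba to -1.79 (from -2.20), Tgfbr2 to 0.40 (from 0.87), Tgfbr3 to -0.91 (from -0.07), Tgfbi to -5.74 (from -5.03) and Smad7 to -3.26 (from -3.80), since Malign_3 was the smaller T22 cluster. Without the top 5% of cells by UMIs, Inhba moved to -1.05 long-term (from -1.31) and -1.87 short-term and Tgfb1 to -2.68 short-term. With a mean over cells, short-term Tgfb1 was -2.72, Inhba -2.001 and Macro-M2 Tgfbi -1.69 (from -1.57). The members higher in T127 in i_CAF numbered 4 in place of 2 with a mean over cells and at 1.5-fold, and 2 to 3 with a pool left out. In endothelial cells that count ran from 0 to 1 with a pool left out, the 1 being Tgfbi without T22 pool 3 or without T127 pool 1. The 3.95% and 2.04% of all genes higher in T127 in these 2 clusters belong to the main settings, so they cannot be set beside these counts. At 1.5-fold 6 of the 10 shares over all genes moved. The cause of the other moves was not tested. Without T22 pool 2 the log2 ratio of Macro-M2 Inhba was -7.73 (from -5.33). Ratios of Tgfb2 in Macro-M2 and of Tgfb3 and Inhba in endothelial cells were not computed for lack of UMIs. Copies of shared barcodes, and pools 1 to 3 as a set, changed no long-term malignant ratio beyond the pool SD. Few cells limit my_CAF, endothelial cells and T127 i_CAF, and shares of cells with a UMI depend on thinning, which moved 24 of 27.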

Other observations

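Of the pathway genes outside the 9 that reached 10 CPM in some cluster, endothelial cells were highest for 8 of 29 long-term, 6 of 31 in T22 and 6 of 30 in T127, beside 12.7%, 14.1% and 13.6% of all genes. Eng, encoding an endothelial co-receptor for TGF-beta and related ligands, was highest there in each setting, at 692 CPM long-term (435 to 822), 959 CPM in T22 (847 to 1121) and 592 CPM in T127 (514 to 830.1), with the next cluster at 93.0, 134 and 31.1 CPM and no overlap of pools. Bambi was also highest in endothelial cells, at 217, 224 and 159.9 CPM, again without overlap with the next cluster. Acvrl1, a type I receptor gene of endothelium, led there at 116, 106 and 80.4 CPM, overlapping CD14-IL1B monocytes. Inhbb was at 219, 140.0 and 244 CPM in endothelial cells, while T22 Malign_3 was higher, at 256 CPM short-term.

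Regulatory T cells were numerous enough only in the long-term and T127 pools, with 113 and 149 cells. In T127 they led for Itgb8, an integrin gene whose product frees latent TGF-beta, at 304 CPM (198 to 378) against 21.5 CPM in the next cluster, and for Lrrc32, whose product holds latent TGF-beta on the cell surface, at 72.0 CPM (43.0 to 112), overlapping i_CAF at 50.9 CPM. The long-term regulatory T cells had 14 Itgb8 UMIs in all, 30.6 CPM with pools from 0 to 120.4 CPM.

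Inhba in long-term Macro-M2, where T22 and T127 tumors are mixed, was at 20.4 CPM, between the short-term values of 3.84 CPM in T22 and 155 CPM in T127. Its pools 1 to 4 ranged from 4.03 to 13.1 CPM and its pools 5 to 8 from 24.2 to 38.2 CPM, the same division of pools seen for Tgfbr2 and Tgfbr3 in i_CAF. Tgfb1 in long-term Macro-M2 showed that division the other way, at 312 to 347 CPM in pools 1 to 4 and 268 to 279 CPM in pools 5 to 8. The makeup of these pools by tumor cannot be told apart from capture with the labels used here.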
